A study of Mus musculus with 6 samples.

Results

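S100 proteins are small calcium-binding proteins with a pair of EF hands, and most of their genes lie together on mouse chromosome 3. The 7 members described here, S100a4, S100a6, S100a8, S100a9, S100a10, S100a11 and S100a13, were taken by symbol, and each has 1 probe set that names it alone, so that 7 of the 45141 probe sets and 7 of the 17097 genes with such a probe set were followed. The samples were blood lymphocytes, labelled T cells, of 3 female C57BL/6 mice, labelled A, C and D, aged 6 to 8 weeks. Both groups carry a progestin treatment, since by the labels every mouse was given 3 mg of Depo-Provera 5 days ahead of bleeding, for which the study's methods give another interval. From each mouse, 300 CD11c+ and 300 CD11c- cells were sorted from the CD3+ CD62L- CD44high gate, and each sample gave 1 array. RNA was amplified before hybridisation. Itgax, which encodes CD11c, was at least 8.41-fold higher in CD11c+ cells (adjusted p = 0.0387 from limma), and all 4 CD3 chains were above background in both groups, as were many genes of other blood cells in CD11c+ cells, given further on. Both groups are bulk sorted cells, in which fewer cells of a type and less RNA per cell cannot be told apart.

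Within a cell, S100a4 and S100a6 bind cytoskeletal and signalling proteins and are known as genes of activated and memory T cells, S100a10 pairs with annexin A2 at membranes, S100a11 pairs with annexin A1, and S100a13 takes part in the release of leaderless cytokines. S100a8 and S100a9 form calprotectin, one of the most abundant proteins of neutrophils and of inflammatory monocytes, which acts on receptors such as Tlr4 and Ager when released. S100 genes are therefore known from both T cells and myeloid cells, and which cells gave each signal here was not tested.

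None of the 7 genes passed the test between the CD11c+ and CD11c- cells in either direction. Over all probe sets the smallest absolute log2 fold change that passed was 1.12, which is larger than that of any of the 7. Of all 17097 genes, 1.40% were higher and 0.222% lower in CD11c+ cells at an adjusted p under 0.05 in limma, a test fitted over all probe sets with the mouse as a block. Without mouse A no gene passed that test, with 1179 higher and 1082 lower at an unadjusted p under 0.05. The named genes that passed differed the same way in all 3 mice, which passing on these same 3 pairs nearly requires. At an unadjusted p under 0.05 the S100 genes called by limma were 2 of 7, S100a4 and S100a10, both lower in CD11c+ cells, where 7.44% of all genes were lower and 7.38% higher by that rule. The fitted log2 fold changes (CD11c+ minus CD11c-) of the 7 ran from -0.86 to -0.02, with a median of -0.17 beside -0.0864 for all genes. S100a4, S100a6, S100a10, S100a11 and S100a13 were above background in both groups, and S100a8 and S100a9 in neither. A gene counted as above background where its group mean passed 5.90 on the log2 scale, which 95% of 34 genes of other tissues stayed under, and above it lay 35% of all genes in CD11c- and 35.5% in CD11c+ cells.

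**Figure D1:**
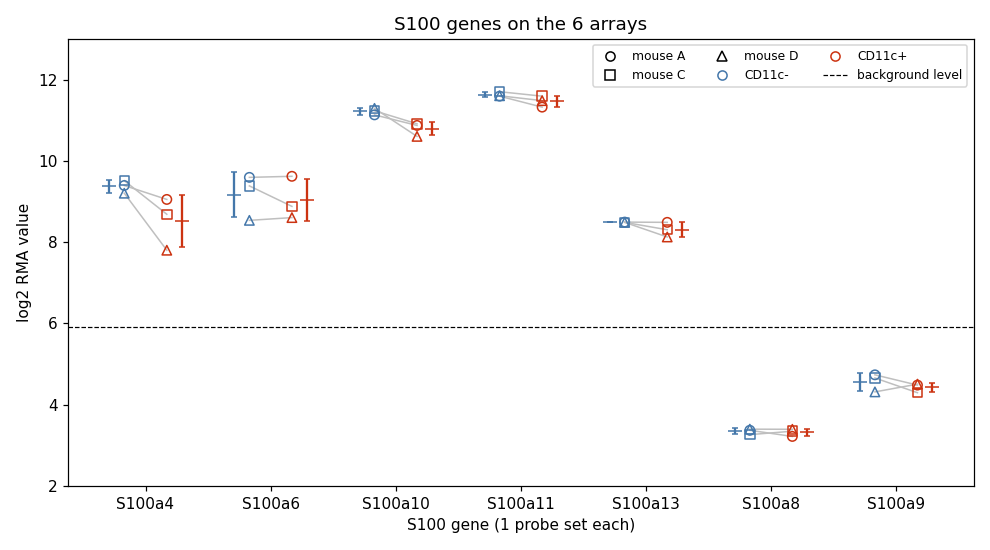
Log2 RMA values (vertical axis) of the 7 S100 genes (horizontal axis), 1 point per array. Shapes give the mouse, colours the group, grey lines link a mouse's 2 arrays, bars are means with SD of 3 mice, and the dashes mark background (5.90). S100a4 spreads between mice in CD11c+ cells, from 9.05 to 7.80, and S100a8 and S100a9 lie under the line on all 6 arrays. Levels of different probe sets cannot be set against each other.

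The sequences before the start sites of 4 members are shown to give the regulatory context of the genes the results turn on. S100a4 had the largest difference, S100a11 is among the genes above background in both groups, and S100a8 and S100a9 are the pair that was not above background. Each run is the 250 bases before the start, on the gene's strand, from RefSeq on build GRCm38.p6, at chr3:90603520-90603769 (plus strand), chr3:93520246-93520495 (plus strand), chr3:90668821-90669070 (plus strand) and chr3:90695722-90695971 (minus strand). Capitals mark matches, on either strand, to the TATA box (TATAAA), the AP-1 motif (TGANTCA), the core of the PU.1 motif (GAGGAA) or the C/EBP motif (TTNNGCAA), and none of these matches overlap, though a PU.1 core and the TATA box of S100a8 stand side by side.
S100a4: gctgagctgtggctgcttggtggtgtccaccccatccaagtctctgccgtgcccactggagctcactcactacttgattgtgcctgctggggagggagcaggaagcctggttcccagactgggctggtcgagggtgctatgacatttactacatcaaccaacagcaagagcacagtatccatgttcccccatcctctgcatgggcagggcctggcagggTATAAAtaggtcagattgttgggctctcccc
S100a11: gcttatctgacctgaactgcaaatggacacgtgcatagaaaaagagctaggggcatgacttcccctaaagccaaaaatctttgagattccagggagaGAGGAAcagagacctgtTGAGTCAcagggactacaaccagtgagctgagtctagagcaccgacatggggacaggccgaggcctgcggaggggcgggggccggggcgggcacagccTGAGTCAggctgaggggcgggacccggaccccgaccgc
S100a8: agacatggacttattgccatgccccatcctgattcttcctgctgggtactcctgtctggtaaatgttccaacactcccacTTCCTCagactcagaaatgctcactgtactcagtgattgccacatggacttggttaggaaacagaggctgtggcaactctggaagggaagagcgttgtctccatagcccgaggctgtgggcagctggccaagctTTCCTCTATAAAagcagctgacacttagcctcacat
S100a9: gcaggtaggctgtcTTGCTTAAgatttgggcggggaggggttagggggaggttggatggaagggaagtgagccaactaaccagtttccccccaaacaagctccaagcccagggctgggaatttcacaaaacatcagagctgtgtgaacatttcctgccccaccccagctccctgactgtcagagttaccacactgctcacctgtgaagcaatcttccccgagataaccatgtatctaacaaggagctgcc

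S100a4 and S100a8 hold a TATA box that begins 31 and 30 bases before the start, a motif found in 12.4% of the 32851 windows of this length in the table. S100a8 also holds 2 PU.1 cores on the opposite strand, beginning 170 and 36 bases before the start, and S100a11 holds 1, at 153 bases, where 23.3% of windows hold one. S100a11 holds 2 AP-1 matches, at 136 and 38 bases, where 6.75% of windows hold one. S100a9 holds 1 C/EBP match on the opposite strand at 236 bases, where 9.56% of windows hold one. The windows of S100a6 and S100a13 hold none of these letters, and S100a10 was not matched to the table. A match is a run of letters and not a measured site.

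Spi1, which encodes PU.1, and Cebpb, which encodes a C/EBP factor, are named here for these motifs, after their values were seen. Spi1 averaged 4.45 ± 0.045 on the log2 scale without and 8.34 ± 0.32 with CD11c (SD over 3 mice), a rise of at least 5.42-fold over the background level (adjusted p = 0.00626 from limma). Cebpb rose by 1.80 on the log2 scale by its brightest probe set (adjusted p = 0.0343 from limma). The mRNA of both factors was thus higher in CD11c+ cells. S100a8 and S100a9 were above background in neither group, and whether either factor acts on them was not tested.

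S100a4, a regulator of non-muscle myosin and of cell movement, was the member with the largest difference. Its log2 values were 9.39, 9.51 and 9.20 in the CD11c- cells of mice A, C and D, and 9.05, 8.68 and 7.80 in their CD11c+ cells. All 3 CD11c+ values lay under all 3 CD11c- values, and the CD11c+ values were spread more widely, with an SD of 0.64 against 0.16. The log2 fold change was -0.86 (standard error 0.24, 95% interval -1.50 to -0.22), which put the CD11c+ level at 0.552 of the CD11c- level, with an interval of 0.354 to 0.861. It was lower in 3 of 3 mice and did not pass the test (adjusted p = 0.244 from limma). The difference was -0.34 in mouse A, -0.83 in mouse C and -1.40 in mouse D, and the fitted value was -0.59 without mouse D and -1.12 without mouse A.

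S100a6, known as calcyclin, lies close to S100a4 on the chromosome and showed a smaller difference, though the gap between the genes was not tested. Its log2 values in mice A, C and D were 9.59, 9.38 and 8.53 in CD11c- cells and 9.62, 8.88 and 8.60 in CD11c+ cells. The groups overlapped, and both arrays of mouse A were high and both of mouse D low. The log2 fold change was -0.14 (95% interval -0.60 to 0.33, adjusted p = 0.789 from limma). On the linear scale that interval runs from 0.658 to 1.26 of the CD11c- level.

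S100a10, the light chain that holds annexin A2 at membranes and lacks calcium binding, had the other difference with an unadjusted p under 0.05. Its log2 values were 11.13, 11.23 and 11.29 in CD11c- cells and 10.87, 10.91 and 10.60 in CD11c+ cells. The groups did not overlap, and CD11c+ values were lower in 3 of 3 mice. The log2 fold change was -0.43 (standard error 0.152, 95% interval -0.84 to -0.02) and did not pass (adjusted p = 0.349 from limma). Its partner Anxa2 differed the other way, averaging 8.03 ± 0.37 without and 9.11 ± 0.17 with CD11c (SD over 3 mice), a log2 difference of 1.08 that did not pass (adjusted p = 0.171 from limma).

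S100a11, which binds annexin A1, had log2 values of 11.59, 11.70 and 11.60 in CD11c- cells and 11.32, 11.59 and 11.48 in CD11c+ cells. The groups did not overlap, though the highest CD11c+ value, of mouse C, came within rounding of the lowest CD11c- value, of mouse A. The log2 fold change was -0.17 (95% interval -0.51 to 0.17, adjusted p = 0.66 from limma). A pseudogene of S100a11 is listed in RefSeq, and whether its transcripts reach this probe set was not tested. Of the 7 genes, 3 (S100a4, S100a10 and S100a11) had all CD11c+ values under all CD11c- values, where 12.5% of all genes did.

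S100a13, which helps to export fibroblast growth factor 1 and interleukin 1 alpha, had log2 values of 8.49 on all 3 CD11c- arrays after rounding and of 8.49, 8.30 and 8.13 in the CD11c+ cells of mice A, C and D. The arrays of mouse A were alike and those of mouse D farthest apart. The log2 fold change was -0.18 (95% interval -0.56 to 0.19, adjusted p = 0.666 from limma), and -0.09 without mouse D. Its cargo genes Fgf1 and Il1a were above background in neither group.

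S100a8 and S100a9, the subunits of calprotectin, were not above background in any sample. The log2 values of S100a8 were 3.37, 3.26 and 3.40 in CD11c- cells and 3.22, 3.35 and 3.39 in CD11c+ cells. Those of S100a9 were 4.73, 4.66 and 4.31 in CD11c- cells and 4.48, 4.29 and 4.50 in CD11c+ cells. The groups overlapped for both genes. The log2 fold changes were -0.02 for S100a8 (95% interval -0.37 to 0.33, adjusted p = 0.954 from limma) and -0.14 for S100a9 (95% interval -0.59 to 0.31, adjusted p = 0.773 from limma). The value of S100a9 was -0.03 without mouse C and -0.31 without mouse D. Folds at this level are not exact, since both group means lie under background. Whether these probe sets would light up in cells that express the genes was not tested, since the series holds no sample known to express them.

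**Figure D2:**
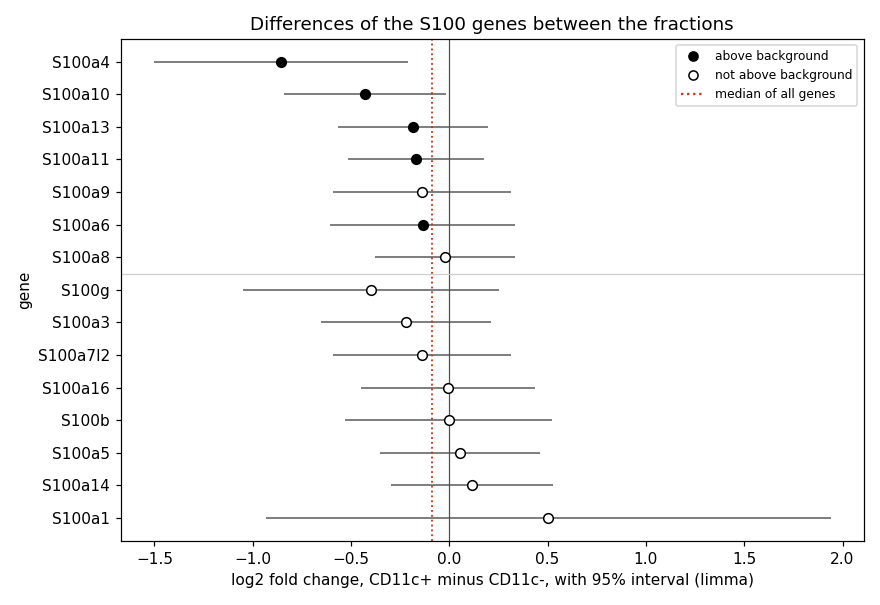
Log2 fold changes between CD11c+ and CD11c- cells (horizontal axis) of the 7 S100 genes, above the grey line, and of the 8 other S100 genes measured (vertical axis), with 95% intervals from limma over 3 mice. Filled points are above background in at least 1 group, and the dotted line is the median of all genes, -0.0864. The intervals of S100a4 and S100a10 lie under 0 before adjustment, and no gene passed after it.

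The rest of the family was under background. Of 13 other S100 symbols looked for, 8 were measured (S100a1, S100a3, S100a5, S100a7l2, S100a14, S100a16, S100b and S100g), and none was above background in either group. By limma 0 of the 8 were called higher and 0 lower, and also 0 at an unadjusted p under 0.05, with log2 fold changes from -0.40 for S100g to 0.50 for S100a1. S100a1 had the widest interval, -0.93 to 1.94.

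In RefSeq order along chromosome 3, S100a13, S100a4 and S100a6 lie among relatives that were not above background. S100a13 lies between S100a1 and S100a14, S100a4 lies between S100a3 and S100a5 among the measured genes, and S100a6 follows S100a5. Each of these neighbours was at or under a mean of 5.41 in both groups, while S100a13, S100a4 and S100a6 were above background there. S100a8 and S100a9 follow, flanked by S100a7l2, with means no higher than 4.57 for the 3 genes. S100a11 and S100a10 form a pair farther along, between Tchhl1 and Tdpoz1, neither of which was above background.

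**Figure D3:**
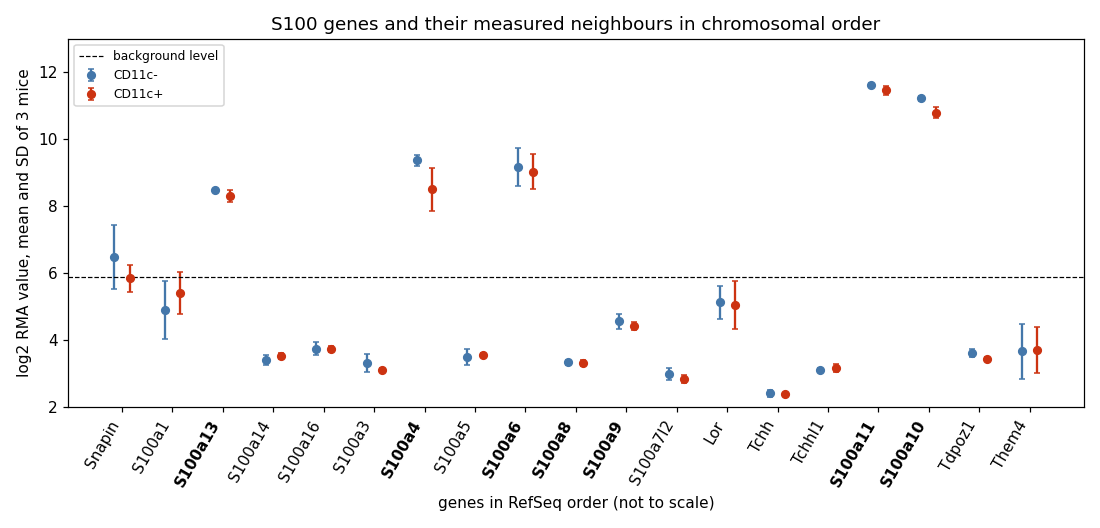
Mean log2 RMA values with SD of 3 mice (vertical axis) in CD11c- and CD11c+ cells for the S100 genes of chromosome 3 and their nearest measured neighbours, in RefSeq order and not to scale (horizontal axis), with members in bold and the background level dashed. The members above the line stand as single genes (S100a13, S100a4, S100a6) or as a pair (S100a11 and S100a10) among genes mostly under it, with Snapin above it in CD11c- cells alone, at 6.49.

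Partners, receptors and effectors of S100 proteins were followed as a list of 26 genes, of which 22 were measured. In limma 3 were higher in CD11c+ cells, 0 lower and 19 did not pass, with 7 higher and 0 lower at an unadjusted p under 0.05. The median log2 fold change was 0.23 beside -0.0864 for all genes. Anxa1, the partner of S100a11, rose by 1.58 on the log2 scale (adjusted p = 0.0258), with means of 6.27 ± 0.46 and 7.85 ± 0.38 (SD, n = 3 mice). Plaur, the urokinase receptor of the plasmin system that S100a10 serves, rose at least 4.39-fold over background (adjusted p = 0.0241 from limma). Cybb, the catalytic subunit of the phagocyte oxidase to which S100a8 and S100a9 deliver arachidonic acid, rose at least 12.8-fold (adjusted p = 0.00805 from limma), and all 3 of its probe sets passed.

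The remaining partners showed smaller differences that did not pass. On the log2 scale Bsg, a receptor for S100a9, differed by 0.40 (adjusted p = 0.289 from limma) and Cd69 by 0.68 (adjusted p = 0.151 from limma). Myh9, the myosin heavy chain bound by S100a4, had 0.29 (adjusted p = 0.554 from limma), and Anxa11, a partner of S100a6, had 0.70 (adjusted p = 0.43 from limma). The lowest values of the list were -0.40 for Ahnak, a scaffold of the S100a10 and annexin A2 complex, -0.24 for Mdm2 and -0.17 for Anxa6, with adjusted p of 0.455, 0.646 and 0.644. The receptor genes Tlr4 and Cd36 were above background in neither group. Ager was above background by the brighter of its 2 probe sets and not by the other, with means at the brighter of 6.78 ± 0.90 and 6.69 ± 0.61 (SD, n = 3 mice).

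Markers of the cell types that S100 genes are known from were set beside these values. Of 20 measured neutrophil genes, 3 were higher in CD11c+ cells, 0 were lower and 17 did not pass in limma, with a median log2 fold change of 0.01 (6 higher and 0 lower at an unadjusted p under 0.05). The granule genes Mpo, Elane, Camp, Ngp, Ltf, Lcn2 and Mmp8 lay at or under 5.18 in both groups, as S100a8 and S100a9 did. Mxd1 rose by 1.75 on the log2 scale (adjusted p = 0.0278 from limma). Il1b rose at least 2.46-fold over background (adjusted p = 0.0258) and Csf3r, the granulocyte colony-stimulating factor receptor, at least 1.47-fold (adjusted p = 0.03). The chemokine receptor Cxcr2 (adjusted p = 0.0595), Padi4 (adjusted p = 0.053) and Chil3 (adjusted p = 0.0835) were above background in CD11c+ cells alone, at means of 7.45, 6.29 and 6.22, and did not pass in limma. Of the list, 1 gene was above background in CD11c- and 6 in CD11c+ cells. The mean of the list ran from 4.02 to 4.28 on the CD11c- arrays and from 4.88 to 4.97 on the CD11c+ arrays.

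Of 24 measured monocyte and macrophage genes, 12 were higher in CD11c+ cells, 0 lower and 12 did not pass in limma, with a median log2 fold change of 2.49 (21 higher and 1 lower at an unadjusted p under 0.05). The mean of the list ran from 5.16 to 5.19 on the CD11c- arrays and from 7.54 to 7.91 on the CD11c+ arrays. Lyz2, the lysozyme of myeloid cells, rose at least 25.1-fold over background (adjusted p = 0.0154 from limma) and Mpeg1, a pore-forming protein of macrophages, at least 9.8-fold (adjusted p = 0.00667 from limma), as both were under background in CD11c- cells. Ms4a6c had the lowest value, -1.02 on the log2 scale by its brightest probe set (adjusted p = 0.149 from limma). Cd14, Lyz1 and Vcan were above background in neither group. The medians of this and the other lists are of fitted values, including genes under background in a group. Csf1r and Tgfbi in this list and Csf3r in the neutrophil list are among genes that the study picked from these samples. The part of these cells in the S100 values was not tested.

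**Figure D4:**
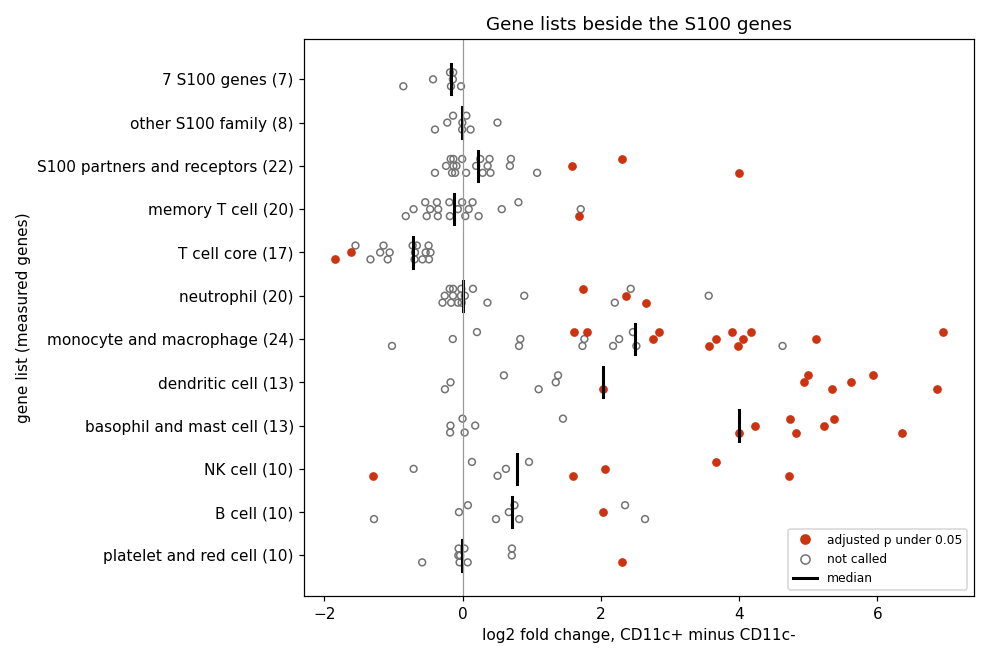
Log2 fold changes between CD11c+ and CD11c- cells (horizontal axis) of the genes of each list (vertical axis, with the count measured in brackets), with red points for genes at an adjusted p under 0.05 in limma and black ticks for the median. The 7 S100 genes have a median of -0.17 and no red point, beside medians of 2.49 for monocyte and macrophage genes and -0.72 for the T cell core.

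Of 17 measured core T cell genes, 0 were higher in CD11c+ cells, 2 lower and 15 did not pass in limma, with a median log2 fold change of -0.72, and all 17 values were below 0 (15 lower and 0 higher at an unadjusted p under 0.05). The list mean ran from 9.40 to 9.55 on the CD11c- arrays and from 8.37 to 8.70 on the CD11c+ arrays. Cd6 fell by 1.85 (adjusted p = 0.0209) and Cd5 by 1.62 (adjusted p = 0.0416) on the log2 scale. The 4 CD3 chains, of which none passed in limma (4 of 4 lower at an unadjusted p under 0.05), averaged -0.739. When each array was centred on these chains, S100a4 stayed below 0, at -0.12, and the other 6 members turned positive, from 0.31 for S100a10 to 0.72 for S100a8. That centring raised the median of all genes to 0.653, above which only S100a8 lay, by less than its standard error of 0.254 there.

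Memory T cell genes, with which S100a4, S100a6, S100a10 and S100a11 are commonly listed, showed no common direction. Of 20 measured, 1 was higher, 0 lower and 19 did not pass in limma, with a median log2 fold change of -0.13, and at an unadjusted p under 0.05 there were 3 higher and 5 lower. The 1 rise was in Il18rap, a chain of the interleukin 18 receptor, at 1.68 on the log2 scale (adjusted p = 0.0222). Il18r1, another chain of that receptor, differed the other way, at -0.52 (adjusted p = 0.213 from limma). The lowest values of the list were -0.82 for Prdm1 (adjusted p = 0.209 from limma) and -0.71 for Il2rb (adjusted p = 0.161 from limma). Lgals3, a galectin, had 1.71 (adjusted p = 0.0534), Crip1, a LIM protein, -0.18 (adjusted p = 0.757), Lgals1 -0.07 (adjusted p = 0.865) and Vim, which encodes vimentin, 0.14 (adjusted p = 0.698).

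The other lists are given as a description, and which cells their signals came from was not tested. The study reports a high purity of its sorted cells. It likens the gene expression of CD11c+ T cells to that of gamma delta T and CD4- iNKT cells. In limma the counts higher and lower were 7 and 0 of 13 dendritic cell genes (median log2 fold change 2.04), 7 and 0 of 13 basophil and mast cell genes (median 4.0), 4 and 1 of 10 NK cell genes (median 0.79), 1 and 0 of 10 B cell genes (median 0.71) and 1 and 0 of 10 platelet and red cell genes (median -0.01). The study also picked H2-Aa, H2-Ab1 and H2-Eb1 of the dendritic cell list and Gzma of the NK cell list from these samples, so those counts are not independent of that choice. The basophil and mast cell genes that passed were Mcpt8, Cpa3, Fcer1a, Ms4a2, Gata2, Hdc and Cd200r3. Mcpt4, Tpsb2, Tpsab1, Cma1 and Kit of that list were above background in neither group. S100a8 and S100a9 were under background beside all of these lists, and the part of such cells in the values of the other S100 genes was not tested.

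The 7 genes did not vary as 1 block over the arrays. Over the 6 arrays, which come from 3 mice and 2 groups, S100a4 ran closest to S100a13 (Pearson r = 0.965) and S100a10 (r = 0.892). S100a10 ran with S100a13 at 0.829, and S100a6 with S100a4 at 0.593 and with S100a11 at -0.175. S100a8 ran with S100a9 at -0.229, though both were under background on all 6 arrays. Among the 6590 genes above background in at least 1 group, those most like S100a4 were Slc25a4 (r = 0.997), Il12rb1 (0.995) and Ndufs3 (0.994), and those most like S100a6 were Plcl2 (0.986), Blmh (0.986) and Rpl7a (0.979). For S100a10 they were AI662270 (0.997), Nlrc3 (0.993) and Zcchc7 (0.991), for S100a11 St8sia6 (0.99), Cep250 (0.989) and Rac2 (0.984), and for S100a13 Mrpl3 (0.985), Ggps1 (0.982) and Nif3l1 (0.98). For S100a8 they were Gart (0.98), Erbb3 (0.974) and Pnrc2 (0.969), and for S100a9 Rtl8a (0.982), Specc1l (0.968) and Mrps16 (0.968), which follow values under background. These are descriptions over arrays that share mice. Picking the highest of 6590 correlations over 6 arrays gives high values by itself, and S100a8, though under background, also reached 0.98.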

How the data were processed

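Image intensities of 6 single-colour Affymetrix arrays were read out by the authors on the array scanner and passed through RMA, giving the log2 values deposited for each probe set. The submitters' processing notes name RMA and limma, for which the version used is not given in these sources. The quantile step of RMA makes array distributions nearly alike (medians 4.4 to 4.54), so a change in total RNA per cell cannot be seen. All 6 columns were used.

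From these values limma 3.58.1 in R 4.3.3 was fitted to all 45141 probe sets with terms for the group and the mouse. Tests were two-sided, and Benjamini-Hochberg adjusted p under 0.05 were called. The labels give each pair of arrays to 1 mouse, and deviations from group means correlated at 0.122, 0.0758 and 0.109 within mice. Between mice they correlated at -0.086 to -0.0217, which is no separate contrast, since deviations from a group mean offset each other. Only 3 pairs of arrays were available, which limits the precision (2 residual degrees of freedom before limma shares variances). The fit was also run on simulated data, which cannot test its variances, since the simulated noise was drawn from them. The largest unadjusted p that passed was 0.000561. Of the probe sets, 28898 carry 1 gene symbol in the platform annotation, 551 carry several and 15692 carry none. Where a gene had several probe sets, the brightest on average was used. The 7 genes, the lists and the rule for named genes (members, relatives, partners, list ends, neighbours and genes most alike) were chosen with earlier results of these data known. Alternatives were the block, the normalization, the variance model, a filter on dim probe sets, the probe sets of a gene, the threshold and leaving out each mouse.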

Additional observations from a re-analysis of the deposited data

How the results depend on the processing

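None of the 7 S100 genes was called higher or lower in limma under the alternatives tried, apart from 1 called higher (S100a8) with arrays centred on the CD3 chains, where 8574 genes were called higher and 98 lower in place of 240 and 38. That centring gave log2 fold changes of 0.31 for S100a10, 0.57 for S100a11, 0.56 for S100a13, 0.60 for S100a6, 0.72 for S100a8 and 0.60 for S100a9, which adds the fall of the CD3 chains to each value by construction. S100a8 was also above 0 after cyclic loess (0.0609), with arrays centred on their median (0.00552) and without mouse A, in which its values without 1 mouse ran from -0.0772 to 0.0409, and S100a6 was above 0 without mouse C, with a range of -0.24 to 0.0474. The cause of these was not tested. Without the mouse as a replicate block S100a4 stayed at -0.86 (adjusted p = 0.347) and S100a10 at -0.43 (adjusted p = 0.251), and the block changed no call of the 7. The 8 other S100 genes were not run under the alternatives. S100a4 was below 0 in all 12 alternatives, with adjusted p from 0.159 to 0.679 and values without 1 mouse from -1.12 to -0.59. S100a10 was below 0 in 11 of 12, with adjusted p from 0.113 to 0.669. Changing the block, the variance model, the filter or the probe sets of a gene leaves a member's log2 fold change unchanged by construction. Those alternatives could move only p, and their sign adds nothing to these counts. Without 1 mouse S100a9 ran from -0.31 to -0.03, S100a10 from -0.51 to -0.30, S100a11 from -0.20 to -0.12 and S100a13 from -0.27 to -0.09, and cyclic loess gave -0.05 for S100a6, -0.06 for S100a9, -0.07 for S100a11 and -0.10 for S100a13. S100a8 could not be tested after the filter on dim probe sets. Over all genes the counts higher and lower were 348 and 89 without the block, 411 and 127 with a random block, 185 and 18 after cyclic loess, 192 and 23 with median centring, 362 and 96 with a variance trend, 337 and 70 after the filter, 411 and 151 with probe sets averaged, 64 and 1 at 0.01 and 430 and 160 at 0.1. They were 0 and 0 without mouse A, 95 and 0 without mouse C and 179 and 19 without mouse D, where limma gave 1179 and 1082, 1083 and 895, and 1154 and 1123 at an unadjusted p under 0.05. Signal over background limits S100a8, S100a9 and the 8 other S100 genes, for which a difference under the background level was not detectable.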
